A study of Homo sapiens with 8 samples.

Results

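The genes of the nuclear receptor superfamily were examined in 1 ATAC-seq peak list, as 43 listed genes of the 20033 protein-coding genes of GENCODE 44 on chromosomes 1-22, X and Y. A peak was assigned to a receptor gene when its summit, the base of highest signal, lay in the gene or within 20 kb of it, which gave 270 of the 60628 peaks in the list (0.445%). The study had fixed HepG2 cells, a human liver tumour line of wild-type genotype per the labels, with 0.1, 0.5, 1 or 5% formaldehyde (FA) for 5 min and then cryopreserved or flash-frozen them, giving 8 libraries. The peaks used here came from the 1 library fixed with 0.1% FA and cryopreserved, and the other libraries were not analysed here. With 1 library there was no replicate, so no difference below carries a p-value and each value describes that library. Other genes of the superfamily were not analysed here.

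Nuclear receptors are transcription factors with a zinc-finger DNA-binding domain and, in most members, a pocket that binds a small lipophilic ligand such as a steroid, thyroid hormone, retinoid, fatty acid, bile acid or drug. Many bind the hexamer AGGTCA, alone or as a pair of copies, and several of the liver receptors do so as heterodimers with a retinoid X receptor (RXR). In hepatocytes they set bile acid, lipid, glucose and drug metabolism, recruiting coactivators when a ligand is bound and, for some members, corepressors when it is not. ATAC-seq reports where the transposase Tn5 could cut the DNA. A peak at such a gene marks accessible chromatin and is no measure of its transcript or protein.

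Some peaks of the receptor genes hold hexamers of the kind that nuclear receptors bind, at shares close to those of all peaks (20.7% against 17.3% for AGGTCA). The sequences of 8 summit windows of 201 bases show where such letters lie in peaks described below, read from GRCh38 on the plus strand, 5′ to 3′. Capitals mark AGGTCA or the HNF4-type motif CAAAGTCCA, on either strand, so TGACCT and TGGACTTTG are the same motifs read from the minus strand. Each window avoids annotated exons. Positions are in kb from the transcription start site (TSS) of the canonical transcript, negative upstream. The 3 windows with the HNF4-type motif were shown by rule, and the other 5 were chosen after their values were seen.
ESR1 at -138.6 kb (chr6:151668944-151669144): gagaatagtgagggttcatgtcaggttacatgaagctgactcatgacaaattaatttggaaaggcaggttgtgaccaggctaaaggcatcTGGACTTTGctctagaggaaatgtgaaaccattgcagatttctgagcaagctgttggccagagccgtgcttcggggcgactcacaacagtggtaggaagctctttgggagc
RXRA at 38.4 kb (chr9:134364798-134364998): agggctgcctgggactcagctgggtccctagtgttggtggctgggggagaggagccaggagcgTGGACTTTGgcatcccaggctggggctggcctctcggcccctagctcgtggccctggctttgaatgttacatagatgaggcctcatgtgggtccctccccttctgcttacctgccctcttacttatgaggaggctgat
NR5A1 at 9.20 kb (chr9:124498104-124498304): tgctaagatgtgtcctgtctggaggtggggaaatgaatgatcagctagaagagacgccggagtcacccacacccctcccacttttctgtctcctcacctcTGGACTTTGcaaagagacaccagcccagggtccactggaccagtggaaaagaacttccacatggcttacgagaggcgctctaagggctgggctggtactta
PPARD at 60.2 kb (chr6:35402676-35402876): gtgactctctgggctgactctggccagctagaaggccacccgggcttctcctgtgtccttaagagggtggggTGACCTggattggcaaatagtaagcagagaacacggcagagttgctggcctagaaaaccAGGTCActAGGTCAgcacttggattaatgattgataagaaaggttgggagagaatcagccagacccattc
PPARD at 72.9 kb (chr6:35415348-35415548): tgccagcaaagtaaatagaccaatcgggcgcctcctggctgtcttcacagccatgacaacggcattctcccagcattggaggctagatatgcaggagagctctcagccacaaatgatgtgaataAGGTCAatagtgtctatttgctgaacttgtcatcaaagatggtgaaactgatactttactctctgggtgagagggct
RORA at 476.5 kb (chr15:60752655-60752855): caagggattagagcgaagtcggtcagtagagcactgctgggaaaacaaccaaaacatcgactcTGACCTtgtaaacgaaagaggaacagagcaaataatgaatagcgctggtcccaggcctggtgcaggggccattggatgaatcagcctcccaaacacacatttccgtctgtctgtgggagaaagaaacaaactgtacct
THRB at 43.04 kb (chr3:24451708-24451908): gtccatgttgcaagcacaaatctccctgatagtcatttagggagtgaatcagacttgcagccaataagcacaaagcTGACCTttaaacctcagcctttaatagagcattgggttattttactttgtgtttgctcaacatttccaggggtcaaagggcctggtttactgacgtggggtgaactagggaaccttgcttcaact
NR0B2 at -0.353 kb (chr1:26914228-26914428): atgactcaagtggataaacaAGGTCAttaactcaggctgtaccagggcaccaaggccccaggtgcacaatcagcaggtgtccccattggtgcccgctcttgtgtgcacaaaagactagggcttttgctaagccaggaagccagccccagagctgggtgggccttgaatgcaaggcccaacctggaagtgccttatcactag

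A peak at the canonical TSS, with its summit within 1000 bp, was found at 29 of the 43 receptor genes (67.4%), against 61.0% of all protein-coding genes. A peak at the start of any annotated transcript was found at 34 of the 43 (79.1%), against 66.6%. A peak in the gene or within 20 kb was found at 41 of the 43 (95.3%), against 88.3%. All 3 shares lay a little above those of protein-coding genes in general, and the gap is no result about receptor genes as a group. PGR, the progesterone receptor, and RORB, a receptor of the retina and brain, had no peak in the gene or the flanks, and their nearest summits lay 301 kb and 225 kb from the TSS.

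The 14 receptor genes with no canonical TSS peak were NR2E1, NR2E3, NR4A2, NR5A1, RORB, ESRRB, ESRRG, RXRG, NR1H4, PPARG, ESR1, PGR, RARG and VDR. Of these, NR2E1, NR4A2, PPARG, RARG and VDR had a peak at the start of another transcript. Receptors known for other organs were among them. NR5A1 directs adrenal and gonadal development, NR2E1 and NR2E3 act in the brain and retina, and RXRG is the RXR of muscle and brain. This did not hold throughout, as NR6A1, a germ cell receptor, had a canonical TSS peak with a fold of 16.8. Of 16 receptors known for a role in the liver (NR1H3, NR1H4, NR1I2, NR1I3, VDR, PPARA, RXRA, NR5A2, NR0B2, NR2F1, NR2F2, NR2F6, NR3C1, ESRRA, THRB and RORA), 14 had a canonical TSS peak, against the 61.0% of protein-coding genes, and NR1H4 and VDR did not. Of the other 27 receptors, 15 had one. The peaks of the liver receptors were not the stronger ones, with a median fold of 10.4 against 14.8 for the others.

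The peak share varied with base composition in both sets of genes. When protein-coding genes were split into 5 bins of equal size by GC content within 500 bp of the TSS, 20.7% had a TSS peak in the lowest bin, then 60.1%, 70.4%, 76.6% and 77.6%. Receptor genes had one at 5 of 10, 2 of 5, 7 of 11, 6 of 8 and 9 of 9 in the same order. Receptor genes stood above the background in the lowest and highest bins and below it in the 3 between, with at most 11 receptor genes in a bin. The 5 low-GC receptor genes with a TSS peak were NR2F1, NR5A2, NR1I2, NR1I3 and RARB.

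**Figure D1:**
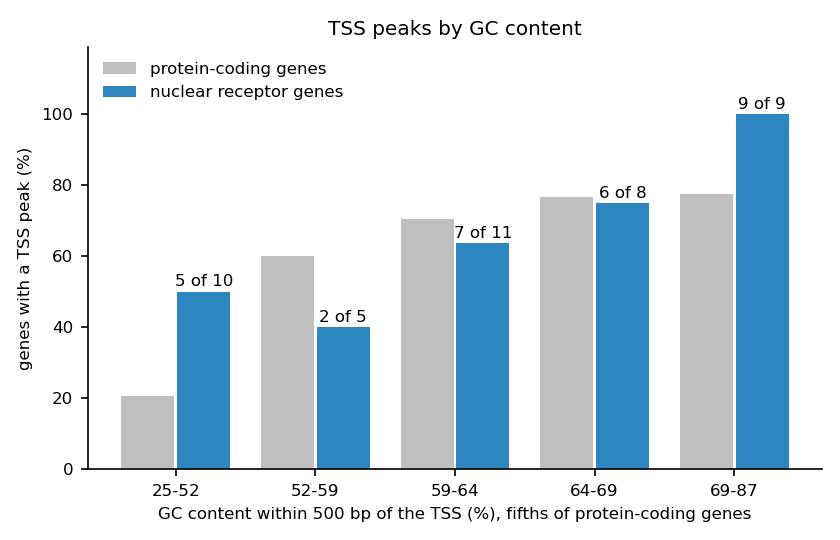
Share of genes with a canonical TSS peak (%, y axis) in 5 equal-sized bins of GC content within 500 bp of the TSS (%, x axis), for protein-coding genes (grey bars) and nuclear receptor genes (blue bars, with the number of genes above each). The receptor genes had a peak at 5 of 10 in the lowest bin, where 20.7% of protein-coding genes did, and at 9 of 9 in the highest.

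In this library, receptor promoters with a peak were less enriched than most promoters with a peak. The fold enrichment is the signal at the summit over that of its surroundings, and the q-value given with it is that of the peak caller. The strongest TSS peak of each of the 29 genes had a median fold enrichment over local background of 11.3, ranging from 4.92 at RARB to 28.6 at PPARD, against a median of 17.9 over the 12229 protein-coding genes that had such a peak. Of the 29, 22 lay below that median, 16 below the interquartile range of 12.9 to 22.8, and 1, PPARD, above it. Compared with genes of their own GC bin, 20 of the 29 lay below the median. Solving the fold and p-value for the number of fragments over the summit gave a median of 37 over 28 receptor genes, against 44. The local background had a median of 1.59 fragments against 1.42, and it lay above the median of protein-coding genes at 20 of the 29. These 29 include PPARA, whose fragments could not be solved and whose background of 1.59 is that median. The summit lay upstream of the TSS at 25 of the 29, which is near the share of 84.3% for protein-coding genes.

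**Figure D2:**
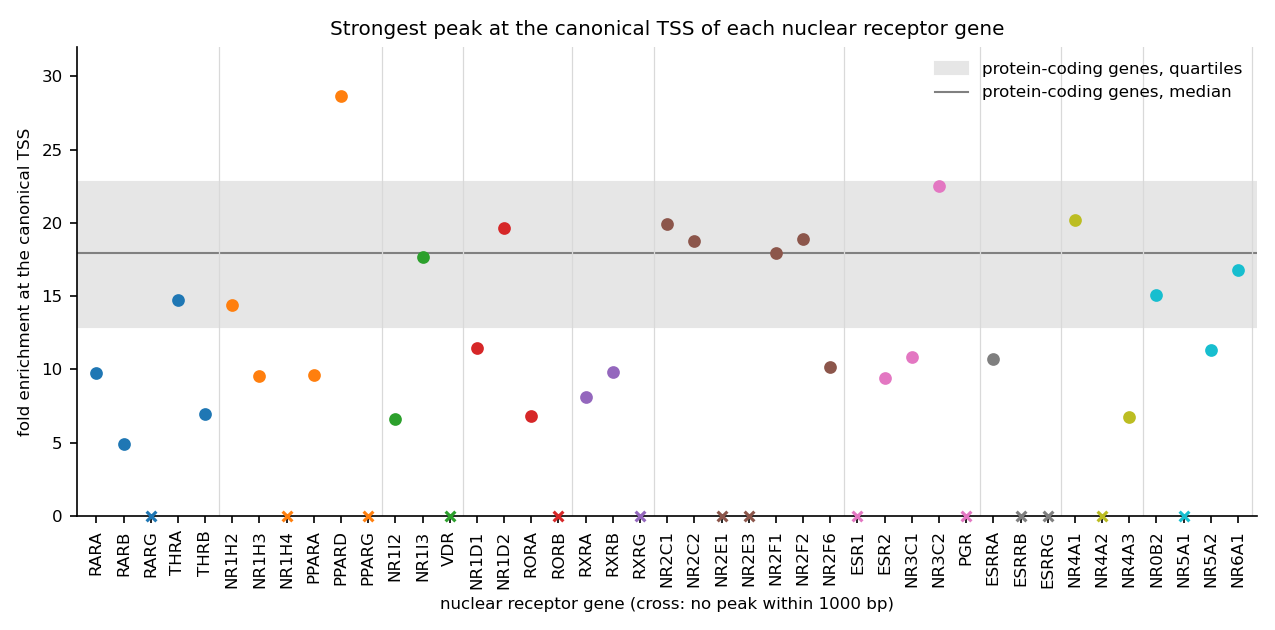
Fold enrichment of the strongest peak within 1000 bp of the canonical TSS (y axis) for each nuclear receptor gene (x axis), coloured and separated by receptor group, with crosses for genes without such a peak and the median and interquartile range of the protein-coding genes that had one in grey. PPARD, at 28.6, is the 1 gene above the grey band, and 16 lie below it.

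Thyroid hormone and retinoic acid receptors, which bind DNA mostly as RXR heterodimers, had a TSS peak at 4 of 5 genes, with a median fold of 8.34. THRB, the main thyroid hormone receptor of the liver, had a TSS peak at chr3:24495034-24495301, with its summit at -348 bp, a fold of 6.94, a -log10 q of 10.5 and 18 fragments (95% Poisson interval 10.7 to 28.4). THRA had a fold of 14.8 and RARA 9.75. RARB had the lowest TSS fold of the 29 at 4.92, resting on 5 fragments (1.62 to 11.7), and RARG had no TSS peak. These genes held many peaks elsewhere. RARA had 11 peaks, THRA 11, THRB 12, RARB 9 and RARG 5. The strongest peak of RARA, at chr17:40318086-40318322 and 9.02 kb, lay at the start of its transcript RARA-204 and of an unnamed gene, with a fold of 27.5, a -log10 q of 101.3 and 88 fragments (70.6 to 108), the most fragments of any receptor peak. The peak at the canonical start of RARA rested on 14 fragments (7.65 to 23.5). The intervals did not overlap, but the other peak was picked as the strongest of the gene. In THRB, the intronic peak at 43.04 kb whose sequence is given above had a fold of 20.7 and 55 fragments, above every promoter peak of the gene.

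Among the lipid sensors, PPARD stood apart from its relatives. PPARD, a fatty acid receptor expressed in most tissues, had its TSS peak at chr6:35342318-35342632, with the summit at -110 bp, a fold of 28.6, a -log10 q of 87.05 and 71 fragments (55.5 to 89.6). It also had intronic peaks at 60.2 kb (chr6:35402674-35402880, fold 28.8, -log10 q 78.0, 61 fragments) and 72.9 kb (chr6:35415271-35415677, fold 28.3, -log10 q 99.9, 85 fragments). An upstream peak at -10.1 kb (chr6:35332312-35332568) had a fold of 26.7, a -log10 q of 85.5 and 73 fragments. PPARD thus held 4 of the 10 receptor peaks of highest fold and 5 of the 29 with a fold above 20. The peak at 60.2 kb carried 3 copies of AGGTCA, a pair of them in the same direction and spaced by 2 bases, as the capitals in its sequence show. A pair with that spacing was present in 16 of 60474 summit windows (0.0265%), and in no other window of a receptor gene.

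PPARA, the liver receptor that drives fatty acid oxidation, had a TSS peak at chr22:46150278-46150530, with the summit at -170 bp, a fold of 9.64 and a -log10 q of 17.9, and its fragments could not be solved. Its highest fold, 20.4, was at a flank peak at 99.8 kb, which is at the TSS of CDPF1. PPARG, the receptor of fat cell differentiation, had no peak at its canonical TSS but 4 at other starts. The strongest, at 116.8 kb (chr3:12405772-12406109), lay over a coding exon close to the start of transcript PPARG-223, with a fold of 24.7, a -log10 q of 75.6 and 66 fragments (51.0 to 84.0). The highest fold was thus at a neighbour's TSS for PPARA and at another start for PPARG. For PPARD it was at an intronic peak, whose fold of 28.8 was close to the 28.6 at the TSS.

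The oxysterol receptors NR1H3 and NR1H2, which induce cholesterol efflux and fatty acid synthesis, both had TSS peaks. NR1H3 had one at chr11:47257550-47258020, with the summit at -70 bp, a fold of 9.53, a -log10 q of 18.2 and 25 fragments (16.2 to 36.9). A peak at -9.14 kb, at the start of transcript NR1H3-201 and also at the TSS of its neighbour ACP2, had a fold of 17.7. NR1H2 had a TSS fold of 14.4 and 12 peaks in all. NR1H4, the bile acid receptor, had no TSS peak and a nearest summit at 1.51 kb with a fold of 9.03 and 17 fragments. NR1H4 had 5 peaks in the gene body, the strongest at 80.9 kb with a fold of 12.2, and 3 in the flank. Its highest fold, 18.7, was at a flank peak at 99.8 kb with 42 fragments. The NR1H4 promoter fell in the lowest GC bin.

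The drug-sensing receptors NR1I2 and NR1I3, which induce cytochrome P450 genes, differed at their promoters. NR1I2 had a weak TSS peak at chr3:119781925-119782037, with the summit at -96 bp, a fold of 6.59, a -log10 q of 7.07 and 8 fragments (3.45 to 15.8). An intronic peak of NR1I2 at 13.2 kb had a fold of 24.3, a -log10 q of 83.8 and 76 fragments (59.9 to 95.1). The counting intervals of those 2 peaks did not overlap, but the intronic peak was picked as the strongest of the gene. NR1I3 had a TSS peak at chr1:161238080-161238385, with the summit at -45 bp, a fold of 17.7, a -log10 q of 37.4 and 34 fragments (23.5 to 47.5). Its other 5 peaks were all in the flank. Of these, the peaks at 14.5 and 13.9 kb lay at the TSS of APOA2 and the peak at 12.2 kb at that of TOMM40L. VDR, the vitamin D receptor, had no canonical TSS peak, and its peak at another start was the weakest of all receptor peaks at a fold of 4.08 and 4 fragments. A VDR peak at -5.25 kb, inside the gene but upstream of the canonical transcript, had a fold of 21.5 and 41 fragments.

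The clock receptors NR1D1, NR1D2 and RORA, which repress or activate BMAL1, had TSS folds of 11.4, 19.6 and 6.80. The RORA TSS peak at chr15:61229206-61229376 had its summit at 26 bp, a -log10 q of 8.10 and 7 fragments (2.81 to 14.4). The remaining 11 RORA peaks lay from 476.5 to 750.1 kb, in the far part of the gene and just past its end. The strongest of them, the intronic peak at 476.5 kb, had a fold of 24.7 and 43 fragments (31.1 to 57.9), and a peak at 636.7 kb, with a fold of 16.7, was at the start of transcript RORA-204. In NR1D2 the stronger TSS peak was at 815 bp, past the start, and the peak at -2 bp had a fold of 8.54. NR1D1 lies beside THRA, and the 2 genes shared 8 peaks.

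RXRA, the RXR of the liver and the partner of many receptors above, had a TSS peak at chr9:134326015-134326234, with the summit at -292 bp, a fold of 8.13, a -log10 q of 15.3 and 24 fragments (15.4 to 35.7). It had 15 peaks, of which 11 were in the gene, a density of 8.91 per 100 kb. That density ranked at percentile 98.5 among protein-coding genes of like length, the longest of 5 bins of equal size. The strongest, an intronic peak at 38.4 kb with the HNF4-type motif shown above, had a fold of 20.1 and 36 fragments. RXRB had a TSS fold of 9.79. RXRG had no TSS peak and 3 peaks in all, none nearer than 36.4 kb.

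Of the orphan receptors of the NR2 family, 5 of 7 had a TSS peak, with a median fold of 18.8, the highest median of the 10 groups. NR2F1 and NR2F2, also known as COUP-TFs, repress transcription at AGGTCA repeats. NR2F1 had a peak at chr5:93582766-93583255 (summit -90 bp, fold 17.9, -log10 q 77.9) with 85 fragments (67.9 to 105). NR2F2 had one at chr15:96330496-96330814 (summit -105 bp, fold 18.9, -log10 q 55.5) with 55 fragments (41.4 to 71.6). NR2F6, a related repressor, had one at chr19:17245926-17246221 (summit -113 bp, fold 10.1, -log10 q 27.9) with 40 fragments (28.6 to 54.5). NR2C1 and NR2C2, which bind repeats of AGGTCA, had TSS folds of 19.9 and 18.8. The flank peak of NR2C1 at 69.9 kb (chr12:95003608-95003849, fold 29.0, -log10 q 69.4, 51 fragments) lay at the TSS of NDUFA12, a gene of mitochondrial complex I.

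Of the steroid receptor genes, 3 of 5 had a TSS peak. NR3C1, the glucocorticoid receptor, had a TSS peak at chr5:143403679-143403845, with the summit at -61 bp, a fold of 10.8, a -log10 q of 21.6 and 27 fragments (17.8 to 39.3). NR3C2, the mineralocorticoid receptor, had a higher TSS fold of 22.5 with 56 fragments (42.3 to 72.7), and the counting intervals of the 2 genes did not overlap. ESR2 had a TSS fold of 9.44, with the summit at -635 bp and 11 fragments. ESR1, the estrogen receptor, had no peak at its canonical TSS or at any other annotated start but 13 peaks in all, 10 of them upstream of the canonical TSS. One of these, at -138.6 kb (chr6:151668917-151669213), was the strongest peak of any receptor gene, with a fold of 29.9, a -log10 q of 86.3 and 68 fragments (52.8 to 86.2). It lies within the gene but outside the canonical transcript and holds the HNF4-type motif in its summit window.

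ESRRA, which regulates mitochondrial genes with PGC-1 coactivators, had a TSS peak at chr11:64305047-64305571, with the summit at -352 bp, a fold of 10.7, a -log10 q of 34.5 and 49 fragments (36.3 to 64.8). ESRRB and ESRRG had no TSS peak, though ESRRB had a gene-body peak at -23.2 kb with a fold of 20.04. Of the immediate early receptors, NR4A1 had a TSS fold of 20.2 and NR4A3 one of 6.75, while NR4A2 had a peak at -9.77 kb, at another start, with a fold of 17.1. A peak of NR4A1 at -18.4 kb (chr12:52032969-52033226) had a fold of 25.9, a -log10 q of 72.1 and 60 fragments (45.8 to 77.2).

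NR5A2 (LRH-1), which controls bile acid synthesis, had a TSS peak at chr1:200027315-200027594, with the summit at -184 bp, a fold of 11.3, a -log10 q of 17.0 and 16 fragments (9.15 to 25.98). Its peak at 13.0 kb was stronger, with a fold of 21.7 and 37 fragments. NR0B2 (SHP), a receptor without a DNA-binding domain that is induced by NR1H4 and represses NR5A2, had a TSS peak at chr1:26913863-26914537, with the summit at -353 bp, a fold of 15.1, a -log10 q of 63.0 and 75 fragments (59.0 to 94.0). That window holds 1 copy of AGGTCA, shown above. A flank peak of NR0B2 at -7.69 kb (chr1:26921523-26921871, fold 28.5, -log10 q 83.0, 67 fragments) lay at the TSS of its neighbour NUDC. NR6A1, a germ cell receptor, had a TSS fold of 16.8 and the most peaks of any receptor gene, 19. NR5A1, its neighbour, shared 4 peaks with it.

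Across the 43 genes, the 282 pairs of a gene and a peak comprised 39 at a canonical TSS, 21 at the start of another transcript, 117 in the gene body and 105 in the flank. Of the gene-body peaks, 88 were intronic, 25 lay in the gene but outside its canonical transcript and 4 lay in a 3′ untranslated region. Of the flank peaks, 32 lay at the canonical TSS of another gene, and these had a median fold of 14.1 against 8.97 for the others. So part of the signal counted beside the receptor genes was at promoters of their neighbours.

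**Figure D3:**
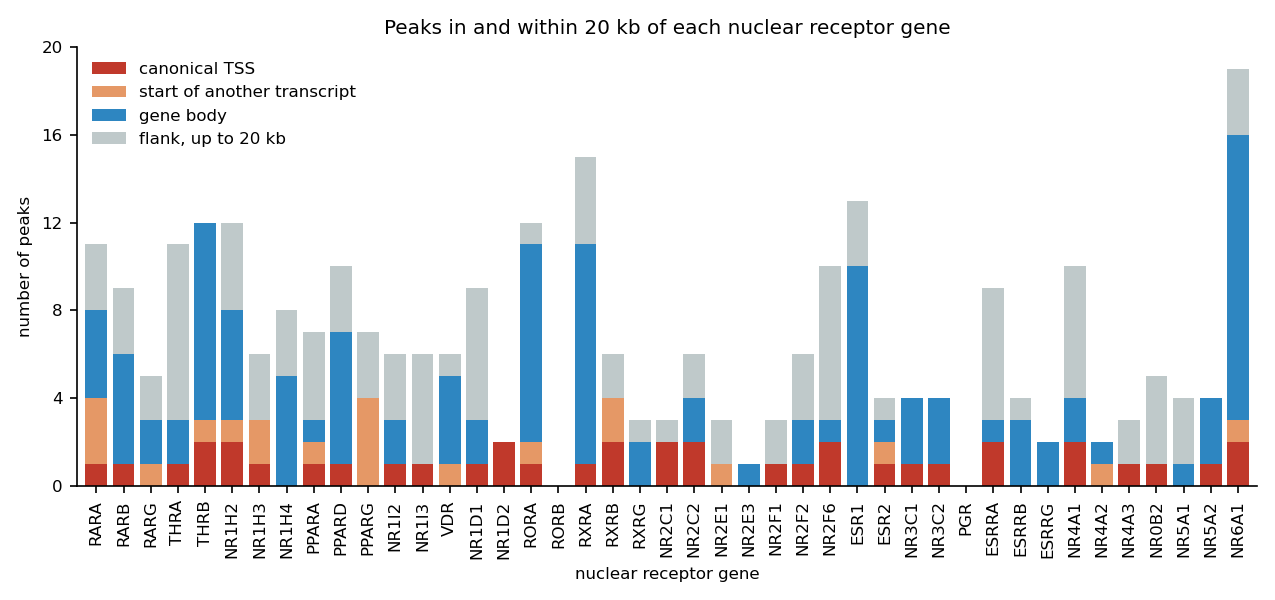
Number of peaks (y axis) assigned to each nuclear receptor gene (x axis, in the order of the receptor groups), stacked as canonical TSS, start of another transcript, gene body and flank of up to 20 kb. NR6A1 had the most peaks, 19, RXRA had 15, and RORB and PGR had none.

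The receptor genes were longer than most, with a median of 53.4 kb against 27.5 kb, and held a median of 6 peaks against 4. Per length, pooled over genes, they had 2.50 peaks per 100 kb of gene body against 2.60, and 2.82 without RARB, the longest at 910.0 kb, so the direction rested on that gene. Compared with genes of like length, in 5 bins of equal size, 28 of 43 receptor genes had a density above the median of their bin. RARA had 14.4 peaks per 100 kb, at percentile 99.3 of its length bin, and NR1H2 had 13.0, at percentile 98.7 of its bin. ESRRG, with 2 peaks in 634.5 kb, had 0.315.

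For many receptor genes the strongest peak of the gene was not at its canonical start. Of 25 with a TSS peak and another peak in the gene or the TSS window, 13 had a stronger one elsewhere in the gene (52.0%). The share was 32.1% of 8109 protein-coding genes. Peaks at starts of other transcripts were included. The receptor genes with a stronger peak were NR2C2, NR4A1, NR5A2, NR6A1, RORA, RXRA, NR1H3, PPARD, NR3C1, RARA, RARB, THRB and NR1I2. In RARA and NR1H3 the strongest peak lay at the start of another transcript. Length moves with this share: in the longest bin it was 45.7% for protein-coding genes and 8 of 11 for receptor genes. Of the 10 receptor peaks of highest fold, 1 was at a canonical TSS, 2 were at other starts, 4 in the gene body and 3 in the flank.

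**Figure D4:**
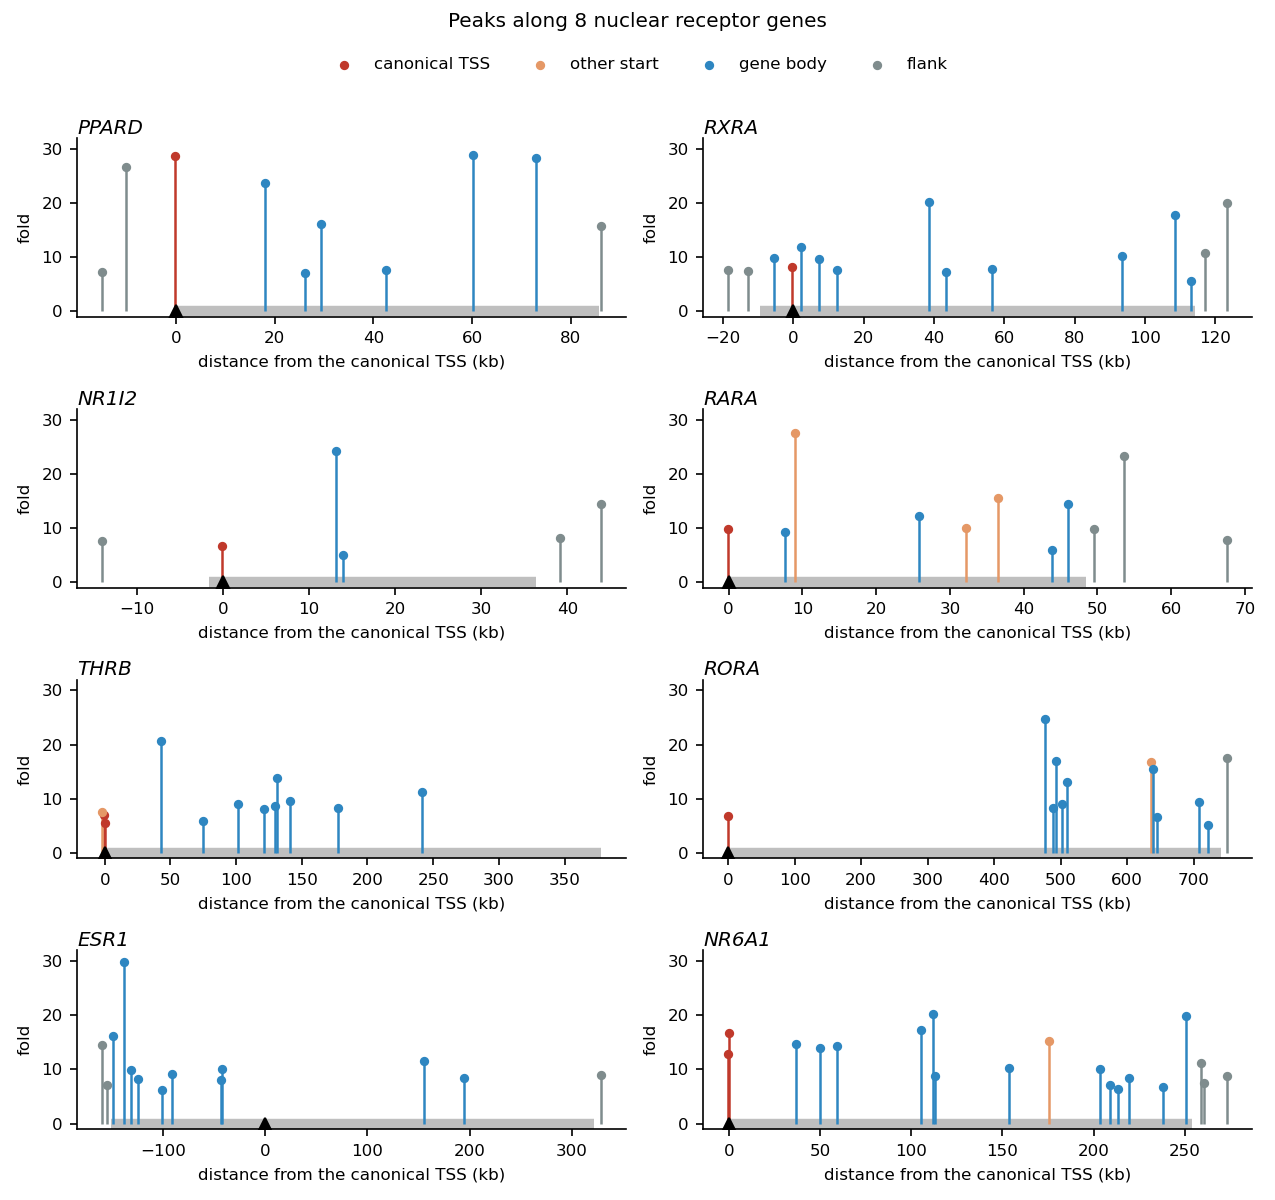
Fold enrichment (y axis) of each peak against the distance of its summit from the canonical TSS (kb, x axis, with its own range in each panel, positive in the direction of transcription) for 8 nuclear receptor genes. The grey bar is the gene, the triangle its canonical TSS, and colours give the kind of position. In all 8 panels the tallest line is away from the canonical TSS, though in PPARD the line at the TSS is nearly as tall. The ESR1 maximum of 29.9 lies at -138.6 kb.

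The motif AGGTCA was found within 100 bp of the summit in 56 of the 270 receptor peaks (20.7%), against 17.3% of all peaks. Within 50 bp of the summit the shares were 10.7% and 10.0%, so the gap depended on the width searched. At canonical or other starts, 9 of 59 receptor peaks had it (15.3%), against 8.49% of all canonical TSS peaks, and away from any gene's canonical TSS 44 of 176 had it (25.0%), against 20.7% of all such peaks. The 9 peaks at starts belonged to NR0B2, PPARG, THRB, NR6A1, ESRRA, NR2C1 and NR2F6. Receptor peaks with AGGTCA or the HNF4-type motif had a median fold of 10.2, and those without had 9.81.

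The HNF4-type motif CAAAGTCCA was in 3 receptor peaks (1.11%), those of ESR1, RXRA and NR5A1 shown above, against 1.91% of all peaks. The extended form TCAAGGTCA, bound by NR5A and estrogen-related receptors, was in 1 (0.370%), at RARB, against 0.675%. The NR4A type AAAGGTCA was in 10 (3.70%), against 2.42%, and the REV-ERB and ROR type TAGGTCA in 5 (1.85%), against 1.92%. These 3 forms contain AGGTCA and overlap with its count. The repeat of AGGTCA spaced by 1 base and the glucocorticoid type were in 0 of the receptor peaks, and in 0.0380% and 0.0116% of all peaks. No match says only that those letters were not in these windows. The CEBP motif TTGCGCAA, the HNF1 motif and the NRF1 motif were also in 0, against 0.142%, 0.0281% and 0.524%.

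Short motifs of general promoter factors matched in many receptor peaks, and in many of all peaks. How often letters so short match by chance was not computed. The GC box GGGCGG was in 33.7% of receptor peaks against 25.8% of all peaks, and the NFY motif CCAAT in 31.1% against 23.9%. At canonical or other starts the GC box was in 64.4% of receptor peaks, against 61.3% of all canonical TSS peaks. Away from any gene's canonical TSS it was in 19.3% against 12.1%. For the NFY motif these shares were 32.2% against 28.0% and 27.3% against 22.3%. The motif of the liver factors of the FOXA family, TGTTTAC, was in 7.04% against 7.21%, and that of AP-1, TGANTCA, in 7.41% against 9.27%. The E-box CACGTG was in 4.81% against 4.82%, and the ETS motif CCGGAAGT in 1.11% against 1.88%. A match to letters does not show that a factor was bound.

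**Figure D5:**
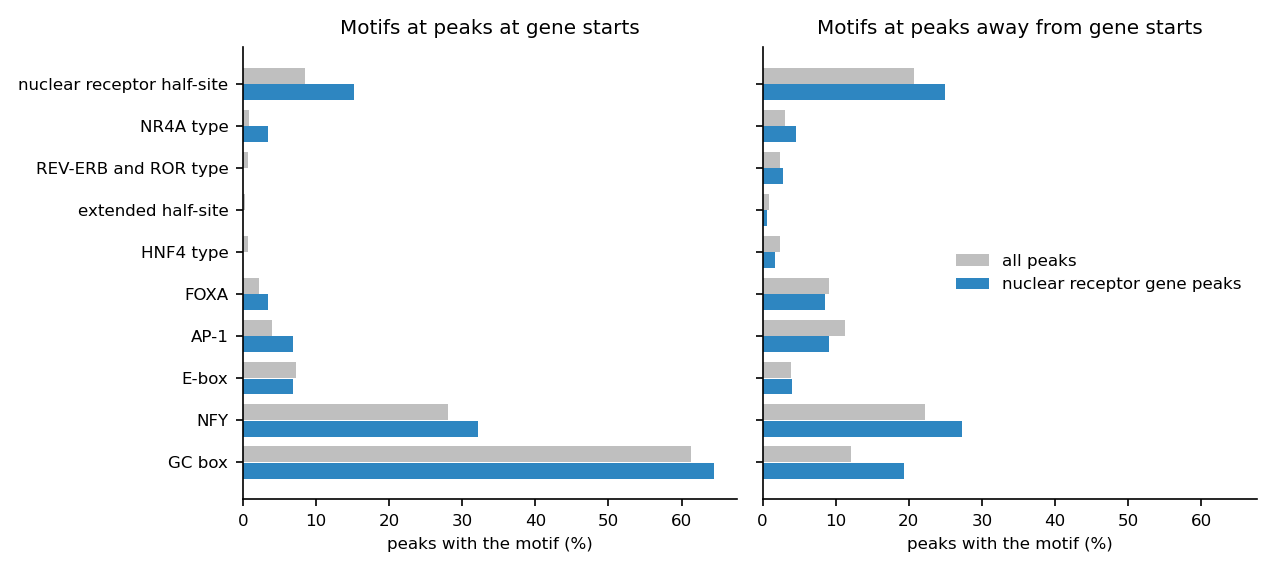
Share of summit windows of 201 bases that hold each of 10 motifs (%, x axis) at gene starts (left) and away from them (right), for all peaks (grey) and nuclear receptor gene peaks (blue). The receptor bars on the left include starts of other transcripts, and the grey bars there are canonical TSS peaks only. The core hexamer AGGTCA, the top row, was in 15.3% of receptor peaks at starts against 8.49% of all.

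Coregulators are the proteins that the receptors recruit. Of 24 coregulator genes, 23 had a TSS peak (95.8%, against the 61.0% of protein-coding genes), and EP300, a histone acetyltransferase, did not. Of the 24, 19 fell in the 2 bins of highest GC content, where 76.6% and 77.6% of protein-coding genes had a peak, and 18 of the 19 had one. The highest folds were 32.6 at NCOA3, a coactivator, 29.6 at HDAC3, the deacetylase of the corepressor complex, 22.9 at KDM1A and 21.9 at SIRT1. Of 22 genes that make, clear or carry ligands, 11 had one (50.0%), led by the vitamin D 25-hydroxylase CYP2R1 at 27.0, TTR at 18.9, CYP27A1 at 16.9 and FABP1 at 16.2. Of 39 textbook target genes, 23 had one (59.0%), led by BMAL1 at 29.0, MYLIP at 28.5, FKBP5 at 26.1 and CREB3L3 at 21.5. All 4 clock targets of NR1D1 and RORA and 4 of 5 targets of NR1H3 and NR1H2 had one, against 1 of 4 of NR1H4 and 1 of 4 of NR1I2 and NR1I3. Of the remaining target groups, 3 of 7 had a peak for PPARA, 2 of 3 for the RARs, 1 of 1 for VDR, 4 of 6 for NR3C1, 2 of 3 for the thyroid hormone receptors and 1 of 2 for ESR1.

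The cell type of the label was checked in the same way. Against the 61.0% of protein-coding genes, 10 of 12 hepatocyte marker genes had a TSS peak, ALB and FGB being without one, and of 13 markers of endothelial, stellate, blood and bile duct cells 2 had one, CD68 and KRT19.

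The depth behind single peaks was low. Summit fragments, solved from the deposited values, had a median of 21 over receptor peaks and ranged from 4 to 88, and 22.4% of receptor peaks rested on at most 10 fragments, against 25.3% of all peaks. Intervals cover counting error only. The TSS rule turned on few genes, with 28 receptor genes called at 500 bp, 29 at 1000 bp and 31 at 2500 bp. Nearest the limit inside were summits of NR2C2 at 939 bp (fold 18.8) and NR1D2 at 815 bp. Both genes also had a summit at the start, at -40 and -2 bp. ESR2 had a single TSS summit, at -635 bp. Nearest outside were an ESRRA peak at -1050 bp (5.46), a PPARG peak at -1093 bp (12.1) and an NR2F6 peak at -1107 bp (7.23). ESRRA and NR2F6 had other summits inside the limit, and PPARG had none. At the flank limit, a THRA peak lay 19865 bp from the gene and a VDR peak with a fold of 22.6 lay outside, at 20479 bp.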

How the data were processed

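ATAC-seq peaks of 1 HepG2 library (0.1% FA, cryopreserved) were analysed. According to the methods, the authors mapped reads to GRCh38 with Bowtie2 in snakePipes and called peaks with MACS2, with no version stated. The submitters' processing notes also name bcl2fastq, cutadapt and deepTools 3.5.5. No shift of read ends for the Tn5 offset is described, and such a shift would move summits by a few bases. The authors deposited, per peak, a score (10 times the -log10 q, rounded down), the fold ratio of the summit over local background, the -log10 p and -log10 q of the summit, and the summit offset.

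Summits were placed on GENCODE 44 genes in the order canonical TSS (1000 bp), other transcript start, gene body, flank (20 kb). Background shares cover the same rule over all protein-coding genes, with no low-value filter. Fragments at a summit were solved from fold and -log10 p and came out whole within 0.01 for 99.7% of peaks. Where more than 1 solution existed, the one nearer to a whole number was kept, which raises that share. The solution was tested on simulated data, but the simulated counts did not reach as low as those of the weakest peaks here. Of 282 gene and peak pairs, 12 could not be solved to 1 value. Intervals are exact Poisson at a 95% level. Motifs were searched 100 bp to either side of each summit, on both strands.

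The members, lists, motifs and tests were chosen with earlier results of these data known. Full values were given by rule for the strongest canonical TSS peak of 16 receptors known for a role in liver and for the 10 receptor peaks of highest fold, and for other lists the 4 highest folds and up to 5 genes without a peak. Spacings of 0 to 5 bases between AGGTCA copies were searched after the windows were seen. The tools were pysam 0.24.0, pandas 2.3.3, numpy 2.4.6, matplotlib 3.10.9 and scipy 1.17.1 under Python 3.11.15.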

Additional observations from a re-analysis of the deposited data

How the results depend on the processing

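Of 79 recomputed values, 11 moved and 68 did not, taking a count or density as moved when it changed by over 1.5 times and a share or median when it left its 95% interval. Within that limit, a -log10 q of at least 10 took the density from 2.50 to 1.80 peaks per 100 kb, gene-body peaks from 117 to 83 and flank peaks from 105 to 86. Leaving out flank peaks at the canonical TSS of another gene took the flank count from 105 to 73. The number of receptor genes with a canonical TSS peak stayed between 26 and 34 over other windows, whole peaks in place of summits, stricter q-values and any start. For all protein-coding genes the share, 61.0%, moved to 58.3% with a window of 500 bp, 65.4% with 2500 bp, 57.8% with a -log10 q of at least 10 and 66.6% with any transcript start. With a flank of 50 kb, 1 receptor gene in place of 2 had no peak, and flank peaks rose from 105 to 212, against 56 with 10 kb. AGGTCA within 50 bp of the summit was in 10.7% of receptor peaks and 10.0% of all peaks, so the gap seen with the wider window narrowed, and with a -log10 q of at least 10 the share of all peaks was 16.4%. Whole fragments came out at 98.8% of peaks with a tolerance of 0.002. The wider or narrower windows and stricter thresholds set these values by construction, and the cause of the narrower AGGTCA gap was not tested. The density without the longest receptor gene was an alternative chosen after seeing the data, and it gave 2.82 peaks per 100 kb in place of 2.50, above in place of below the 2.60 of protein-coding genes. No paired analysis was possible because 1 library was used and the labels give it no replicate number. Depth limits the weakest peaks, which rest on as few as 4 fragments.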
